A study of Mus musculus with 18 samples.

Results

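The genes described here are 32 genes of protein folding and stress signalling in the endoplasmic reticulum (ER), chosen by gene symbol from the 24539 genes listed for each library, and all 32 were present in every list. They comprise 15 ER chaperones and foldases, 5 stress transcription factors, 1 sensor kinase, 3 genes of ER-associated degradation, 4 targets of the transcription factor ATF4, 2 regulatory subunits of the eIF2alpha phosphatase and 2 subunits of the translocon. The livers came from male wild type C57BL/6 mice, 16 weeks old, kept for their last 8 weeks on 1 of 3 diets: chow for the control group, a diet rich in fat for the HFD group, and that diet plus lycopene, the red carotenoid of tomatoes, for the HFD+LYC group. For each diet there were 3 libraries of poly(A) RNA from total RNA (mRNA) and 3 from ribosome-nascent chain complexes (RNC), the ribosome pellet with the transcripts bound to it, so that 18 libraries were available. An mRNA and an RNC library that share a sample code are taken here as 1 liver (9 livers); no label states this in words, and the ratios per liver and the fits with the liver as a block rest on it. The labels give no dose of lycopene and no fat content of the diet, and whole liver holds several cell types. Levels are CPM, read counts divided by the library total and scaled within each kind of library, listed for replicates 1, 2 and 3 in that order, and group values are mean ± SD (n = 3). A fold is the one fitted by edgeR, which can differ slightly from the ratio of the CPM means printed beside it. A gene was called when its adjusted p in edgeR's quasi-likelihood test, taken over all genes tested, was under 0.05. Shares of all genes called are given for these main fits only. Counts with DESeq2, other scaling or left-out libraries therefore do not show whether the 32 genes gained or lost calls more often than other genes.

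Secreted and membrane proteins enter the ER through the Sec61 translocon and are folded there by chaperones such as Hspa5 (BiP) and by protein disulfide isomerases. When unfolded protein builds up, the unfolded protein response starts from 3 membrane sensors, of which Ern1 (IRE1alpha) splices the Xbp1 transcript, Atf6 is cut free to act as a transcription factor, and PERK phosphorylates eIF2alpha, which favours translation of Atf4. Hepatocytes secrete most plasma proteins, and their ER folding capacity is known to respond to feeding and to dietary fat.

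The libraries held 4533729 to 12742436 counted reads, and the 32 genes took 0.414% to 0.875% of them. The HFD+LYC RNC libraries stood apart. Reads fell on 8940, 9567 and 10037 genes there, against 13324 to 14450 in the other RNC libraries, and 70 to 112 genes had exactly 1 read, against 614 to 861. Of the 32 genes, 4, 2 and 5 had 0 reads in HFD+LYC RNC replicates 1, 2 and 3, and none had 0 reads in any other library. In the mRNA library of HFD+LYC replicate 2, 189 genes had a single read, against 652 to 798 in the other mRNA libraries. The 7 hepatocyte markers summed to at least 20556 CPM in every library, and in RNC they reached 110073 to 420291 CPM in HFD+LYC, 69057 to 98141 CPM in HFD and 89038 to 107085 CPM in control livers. In the same 3 groups the 6 endothelial markers summed to 27.0 to 35.9, 78.9 to 96.6 and 74.95 to 87.7 CPM. The 6 stellate cell markers followed with 41.0 to 71.4, 176 to 218 and 131 to 211 CPM. These RNC differences were not all seen in mRNA. There the hepatocyte markers overlapped, at 20556 to 82622, 50030 to 108230 and 33461 to 118714 CPM in the same order of diets. The endothelial markers were not lower in HFD+LYC mRNA, at 181 to 203, 156 to 189 and 137 to 186 CPM. The stellate markers overlapped, at 95.4 to 224, 187 to 303 and 187 to 276 CPM. The 6 plasma and B cell markers found (Jchain, Mzb1, Pou2af1, Cd79a, Cd79b and Ms4a1) were all at 0 in HFD+LYC RNC and summed to 7.78 to 12.2 CPM in HFD RNC. Kupffer cell and macrophage markers (8 genes) summed to 89.6 to 155 CPM in HFD+LYC RNC and 184 to 329 CPM in HFD RNC, against 156 to 174 CPM in control RNC. In mRNA the 5 cholangiocyte markers summed to 31.7 to 49.9 CPM in HFD+LYC and 137 to 178 CPM in HFD livers, against 141 to 166 CPM in control livers. Erythroid markers (5 genes) overlapped between the diets in RNC, and in mRNA they summed to 657 to 1180.2 CPM in HFD+LYC and 258 to 747 CPM in HFD livers, against 411 to 774 CPM in control livers. In mRNA the 13 clock genes, which cycle over the day, summed to 1376 to 2011 CPM in HFD+LYC, 395 to 715 CPM in HFD and 269.9 to 444 CPM in control livers. Every HFD+LYC RNC value below rests on these 3 libraries, and the part of the gene counts, the markers and the clock genes in the results was not tested.

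The transcription factors of the response bind short promoter elements, and the matches to these elements are listed here. RefSeq promoter windows (GRCm38.p6, from 250 bases before to 50 after the start) were found for 27 of the 32 genes, not for Manf, Hyou1, Atf6, Ppp1r15b and Sec61a1. Both strands were searched for exact matches. The genes described here are counted by gene and the background by window, so the shares differ in unit where a gene has several windows. The ER stress response element (ERSE, CCAAT, 9 bases of any kind and CCACG) was found for 7 of the 27 genes (25.9%) and in 0.119% of all 32851 windows. All 7 genes were chaperones or foldases. ERSE-II (ATTGG, 1 base of any kind and CCACG) was found for 2 genes (7.41%, against 0.0365% of all windows), Herpud1 and Dnajb11. Of the chaperones with a window, 5 had neither ERSE nor ERSE-II. The element bound by ATF4 with C/EBP factors (CARE, TGATGNAAN) was found for Asns, Chac1, Trib3 and Herpud1 (14.8% of the genes, against 3.95% of all windows). The 8-base XBP1 site TGACGTGG was found for 0 of the 27 genes and in 0.676% of all windows. The elements do not overlap each other in these windows. The ERSE copies read as follows, 5′ to 3′ on the strand that carries CCAAT, with the fixed letters in capitals; Hsp90b1 held 2.
Hspa5 (chr2:34772025-34772043): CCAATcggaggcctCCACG
Calr (chr8:84847075-84847093): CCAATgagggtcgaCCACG
Hsp90b1 (chr10:86705638-86705656): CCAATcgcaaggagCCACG
Hsp90b1 (chr10:86705533-86705551): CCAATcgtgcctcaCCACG
Canx (chr11:50325800-50325818): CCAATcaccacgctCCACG
Pdia6 (chr12:17266491-17266509): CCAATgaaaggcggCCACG
Dnajc3 (chr14:118937827-118937845): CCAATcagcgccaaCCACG
Creld2 (chr15:88819520-88819538): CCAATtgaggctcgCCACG
These sites begin at positions -212 to -65 relative to the gene's start, with CCAAT on the plus strand of the gene in Hspa5, Canx, Pdia6, Dnajc3 and 1 of the Hsp90b1 copies. The 250 bases before the start of Herpud1, Hspa5 and Calr are given whole, on the gene's strand with the ERSE or ERSE-II letters in capitals, because Herpud1 and Calr carry the results below and Hspa5 is the standard readout of the response. Herpud1 (plus strand) and Calr (minus strand) lie on chromosome 8 and Hspa5 (plus strand) on chromosome 2.
Herpud1 (chr8:94386179-94386428): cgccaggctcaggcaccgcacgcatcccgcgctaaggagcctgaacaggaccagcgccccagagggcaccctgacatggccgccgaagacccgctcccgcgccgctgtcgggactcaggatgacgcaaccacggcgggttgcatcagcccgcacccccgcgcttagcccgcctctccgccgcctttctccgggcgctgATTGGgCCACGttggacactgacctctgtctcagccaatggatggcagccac
Hspa5 (chr2:34771840-34772089): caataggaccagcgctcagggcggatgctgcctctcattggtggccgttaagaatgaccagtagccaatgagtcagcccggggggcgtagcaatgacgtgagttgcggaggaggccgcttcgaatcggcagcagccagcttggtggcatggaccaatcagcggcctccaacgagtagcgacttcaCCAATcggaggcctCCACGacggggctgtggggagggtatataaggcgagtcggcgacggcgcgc
Calr (chr8:84846932-84847181): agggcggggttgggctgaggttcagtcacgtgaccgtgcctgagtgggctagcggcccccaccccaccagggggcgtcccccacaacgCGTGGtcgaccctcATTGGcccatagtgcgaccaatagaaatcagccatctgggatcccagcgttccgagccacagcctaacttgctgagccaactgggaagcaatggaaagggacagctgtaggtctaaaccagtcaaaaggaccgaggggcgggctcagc
A match is a description of the letters and shows no binding. The 32 genes were chosen for their part in this response, so the shares above are a description and no test.

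In control livers the highest means among the 32 genes belonged to ER chaperones and foldases, and the sensor, Atf6 and the ATF4 targets were among the lower ones. Levels of different genes are compared by the deposited RPKM, which divides reads by the longest transcript. Calr, a lectin chaperone of glycoproteins, was the highest of the 32 in control mRNA at 348 ± 137 RPKM, followed by the disulfide isomerase P4hb (295 ± 116 RPKM), the ER-resident Hsp90 member Hsp90b1 (246 ± 140.2 RPKM), Hspa5 (169.7 ± 72.7 RPKM) and Pdia3 (154 ± 83.5 RPKM). The SDs of these neighbours overlap, so their order is not resolved. The translocon subunit Sec61b followed at 127 ± 68.2 RPKM. Among the transcription factors Atf5 (106 ± 23.4 RPKM), Atf4 (104 ± 15.7 RPKM) and Xbp1 (101 ± 14.1 RPKM) lay close together, and Ddit3 (12.4 ± 3.97 RPKM) and Atf6 (3.55 ± 0.944 RPKM) were lower. Herpud1 led the degradation genes at 58.0 ± 8.47 RPKM, Ppp1r15b the phosphatase subunits at 12.6 ± 2.496 RPKM and Trib3 the ATF4 targets at 2.49 ± 0.670 RPKM. The sensor Ern1 was at 1.76 ± 0.808 RPKM, and Asns was lowest of the 32 at 0.673 ± 0.610 RPKM. In control RNC the 5 highest were the same genes, led by P4hb at 407 ± 72.8 RPKM.

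**Figure D1:**
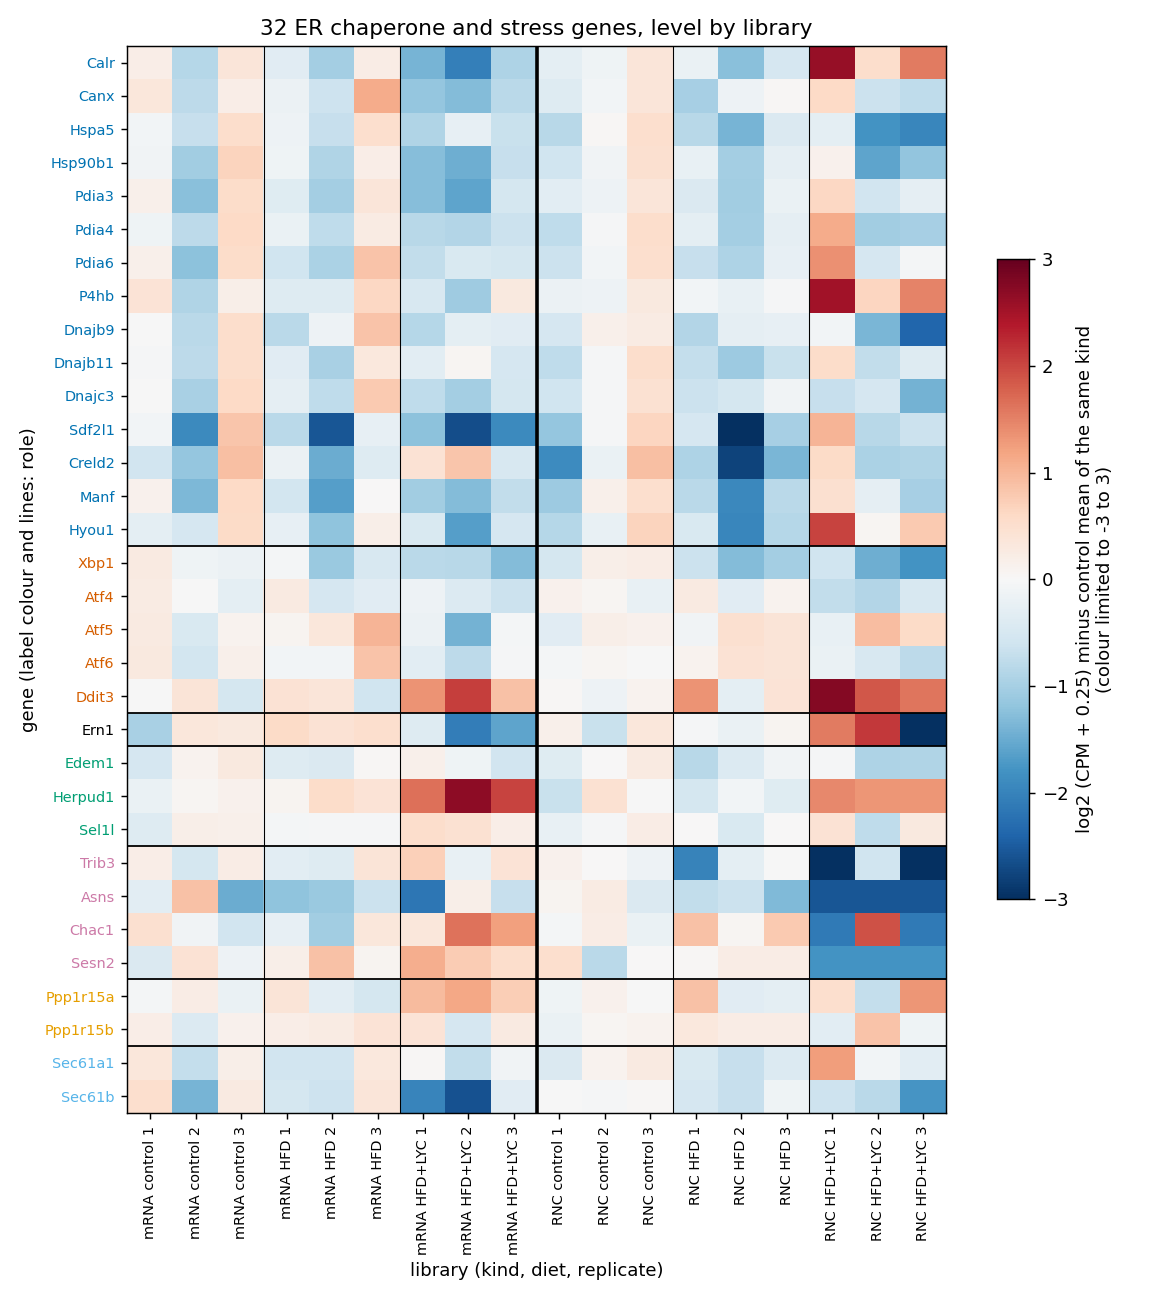
Level of the 32 genes (rows, grouped by role) in the 18 libraries (columns), as log2 (CPM + 0.25) minus the log2 of the control mean of the same library kind, coloured from -3 to 3. The chaperone rows move together from library to library within a diet, and the HFD+LYC columns show Herpud1 and Ddit3 above the control mean in both kinds.

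The chaperones varied together between livers of the same diet. In control mRNA all 15 were lowest in replicate 2, and 13 of 15 were highest in replicate 3. In HFD mRNA 13 of 15 were lowest in replicate 2 and 14 highest in replicate 3. In HFD+LYC mRNA 10 of 15 were lowest in replicate 2 and 8 highest in replicate 3, so the order in mRNA went with the replicate number. In control RNC all 15 were lowest in replicate 1 and highest in replicate 3, so the order of livers in RNC was not that in mRNA. Among the HFD+LYC RNC libraries replicate 1 was highest for 14 of 15. In that library 47.3% of reads fell on 10 genes, against 25.7% to 39.3% in the other RNC libraries, and its scaling factor was 0.428, against 0.836 to 1.34. CPM is divided by this factor, so scaling raises every CPM of that library. Whole livers were measured, so fewer cells of a type and less RNA per cell cannot be told apart in any result below.

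With HFD against control, no gene of the 32 was called in mRNA or in RNC. The comparison asked what the high-fat diet does to ER folding and stress genes. In mRNA 0 of 31 genes tested were called, with 0.0158% of all genes called, and 0 had an unadjusted p under 0.05; DESeq2 also called 0. Their median log2 fold change was -0.09, against -0.01 for all genes. Asns was filtered out of the mRNA test for its low counts. In RNC 0 of 31 were called (0.00858% of all genes), 1 had an unadjusted p under 0.05 and DESeq2 called 0. All 15 chaperones were nonetheless below control in RNC, from -0.11 for P4hb to -1.52 for Creld2, with a median of -0.58 beside 0.01 for all genes. They share the spread described above, and in the alternatives the median ran from -0.77 to -0.29 with 14 or 15 below 0. In mRNA 11 of the 15 lay below control with a median of -0.20, which became 0.24 without control replicate 3 and -0.63 without HFD replicate 3.

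The smallest p in the HFD RNC comparison was that of Xbp1, the factor made active by Ern1 splicing. Its level was 134, 218 and 225 CPM in the control, 122, 77.9 and 94.5 CPM in the HFD and 127, 69.4 and 55.03 CPM in the HFD+LYC RNC libraries. The HFD values lay below all control values (log2 fold change -0.97, SE 0.36, adjusted p = 1), which did not pass. Groups of livers did not overlap for 2 above (6.97% of all genes) and 3 below (7.2%) control. The smallest p above 0 was that of Atf6 (log2 fold change 0.31, SE 0.25, adjusted p = 1). In mRNA the smallest p belonged to Sdf2l1, a partner of the cochaperone Dnajb11, below control (log2 fold change -0.93, SE 0.66, adjusted p = 1.00) and to Atf5 above it (log2 fold change 0.54, SE 0.42, adjusted p = 1.00). Both genes overlapped between diets. In mRNA the groups did not overlap for 2 above (3.76% of all genes) and 0 below (3.46%) control.

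HFD+LYC livers had more Herpud1 than HFD livers in both kinds of library, and more Calr, P4hb and Hyou1 in RNC. The comparison asked what lycopene adds to the high-fat diet. Of the 31 genes tested in mRNA, 1 was called higher and 0 lower in HFD+LYC than in HFD livers, beside 1.99% and 0.916% of all genes. In RNC 4 of 31 were called higher (Herpud1, Calr, P4hb, Hyou1) and 3 lower (Asns, Atf4, Atf6), beside 9.34% and 17.4% of all genes. Over both directions 2.91% of all genes were called in mRNA and 26.8% in RNC, so the 31 genes were called in mRNA about as often as other genes and in RNC no more often. Against control, 2 were called higher and 0 lower in mRNA (Herpud1 and Ddit3, beside 3.31% higher and 2.23% lower of all genes). In RNC 4 were higher (Herpud1, Ddit3, P4hb, Calr) and 3 lower (Asns, Xbp1, Sec61b, beside 9.23% and 17.1%). Over both directions 5.54% of all genes were called against control in mRNA and 26.3% in RNC. Groups of livers did not overlap between HFD+LYC and HFD for 5 above (16.7% of all genes) and 3 below (15.2%) in mRNA and for 6 above (13.3% of all genes) and 3 below (28.1%) in RNC, or 31.9% and 41.3% of all genes in either direction. Between HFD+LYC and control they did not overlap for 5 above (14.3% of all genes) and 3 below (13.7%) in mRNA and for 4 above (14.1% of all genes) and 6 below (30.6%) in RNC, or 28% and 44.7%. The balance in RNC depends on the scaling. With unscaled library totals 2 were called higher and 5 lower against HFD, and 2 higher and 7 lower against control, and of the calls above 5 of 7 and 5 of 7 were among them. The share of all genes called with those totals is not given, so a shift in these genes cannot be told from a general one. Both comparisons use the same HFD+LYC livers, so their values stand side by side and do not support each other.

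**Figure D2:**
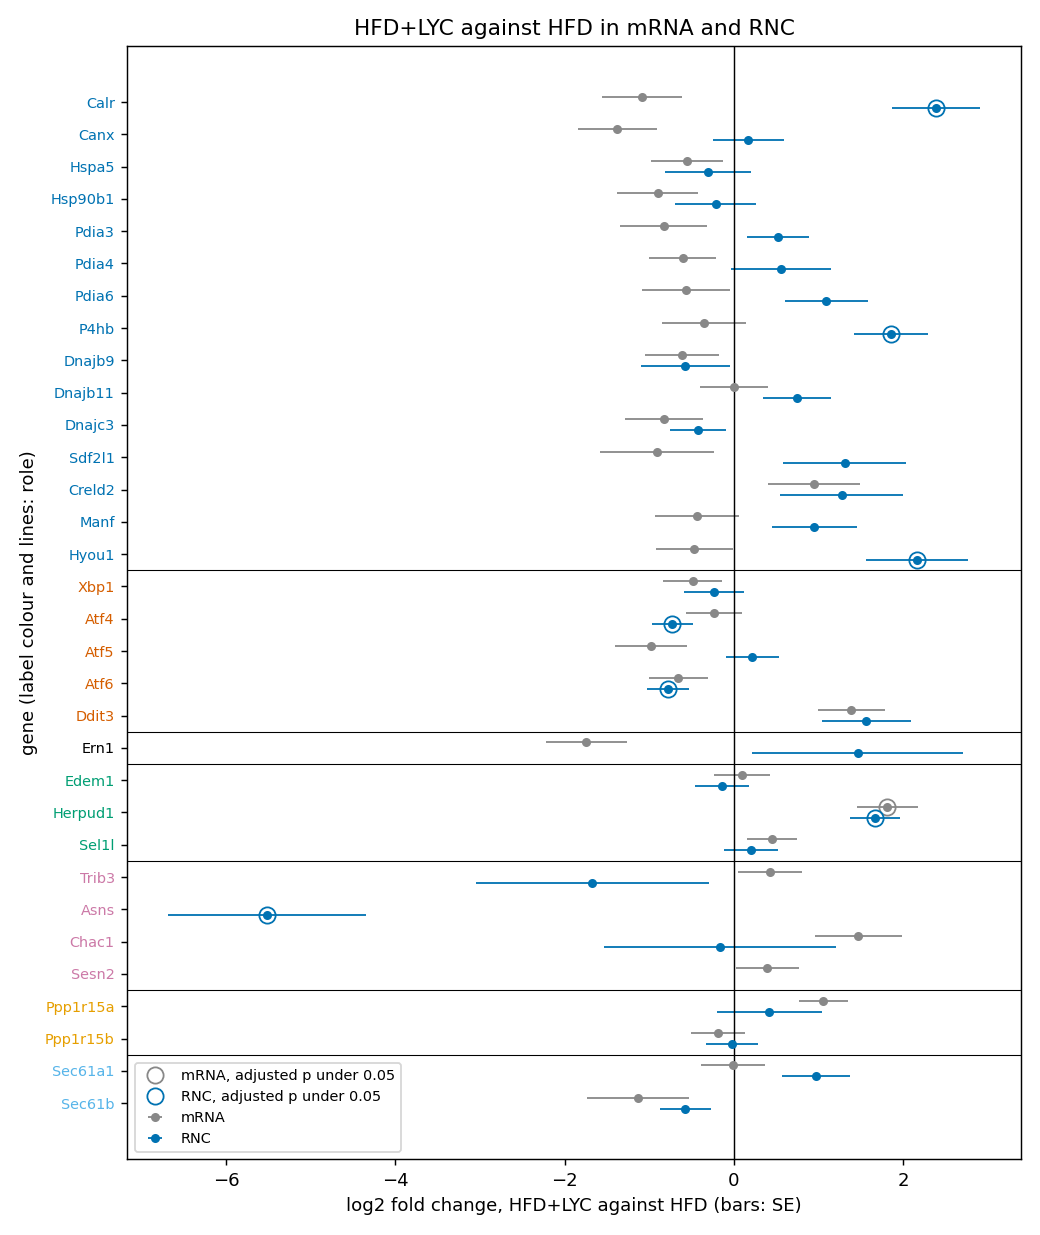
Log2 fold change of HFD+LYC against HFD livers (horizontal axis, bars SE) for each gene (rows, grouped by role) in mRNA (grey) and RNC (blue), with open circles for adjusted p under 0.05. Herpud1 is circled in both kinds, and Calr, P4hb and Hyou1 lie below 0 in mRNA and are circled above 0 in RNC; Asns in mRNA and Sesn2 in RNC were not tested and have no point.

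Herpud1, an ER membrane protein that gathers the degradation machinery around misfolded proteins, was called higher in HFD+LYC livers against both other diets, in mRNA and in RNC. In mRNA it was at 112, 133 and 139 CPM in the control, 137, 188 and 171 CPM in the HFD and 404, 818 and 521 CPM in the HFD+LYC mRNA libraries. In RNC it was at 57.3, 126 and 91.3 CPM in the control, 63.5, 86.6 and 71.3 CPM in the HFD and 247, 229 and 230.4 CPM in the HFD+LYC RNC libraries. In each kind the 3 HFD+LYC values lay above the other 6 as scaled CPM. The deposited RPKM, not scaled here, averaged 79.5 ± 24.5 in HFD+LYC, 46.0 ± 14.2 in HFD and 52.4 ± 18.1 in control RNC, with overlapping SDs. In mRNA Herpud1 rose, with means from 165 ± 26.1 to 581 ± 214 CPM, 3.52-fold (log2 fold change 1.82, SE 0.36, adjusted p = 0.0261), and against control 4.53-fold (log2 fold change 2.18, SE 0.36, adjusted p = 0.00880). In RNC it rose, with means from 73.8 ± 11.8 to 235 ± 10.2 CPM, 3.19-fold (log2 fold change 1.67, SE 0.29, adjusted p = 0.00397), and against control 2.58-fold (log2 fold change 1.36, SE 0.29, adjusted p = 0.00751). The mRNA call against HFD was lost when control replicate 3, HFD replicate 1, 2 or 3, or HFD+LYC replicate 1 or 2 was left out (adjusted p 0.0545 to 0.0806), and that against control without control replicate 3 (adjusted p = 0.0573). Both RNC calls held without each library and were lost only with unscaled library totals (adjusted p = 0.0963 against HFD and 0.160 against control), under which the mRNA call against HFD was lost too (adjusted p = 0.0517).

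The other degradation genes did not pass in any comparison of diets with all libraries scaled. Edem1, a lectin that hands glycoproteins over for degradation, was at 97.3, 147 and 168 CPM in the control, 105, 102 and 141 CPM in the HFD and 153, 125 and 92.6 CPM in the HFD+LYC mRNA libraries, and its groups overlapped. In RNC Edem1 was at 68.1, 88.5 and 105 CPM in the control, 48.6, 65.7 and 80.7 CPM in the HFD and 85.1, 45.5 and 46.7 CPM in the HFD+LYC RNC libraries. Against control it was called lower in RNC without HFD+LYC replicate 1 (adjusted p = 0.0344) and with unscaled totals (adjusted p = 0.0292). Sel1l, the adaptor of the Hrd1 ubiquitin ligase, was at 113, 165 and 164 CPM in the control, 141, 144 and 143 CPM in the HFD and 213, 203 and 167 CPM in the HFD+LYC mRNA libraries. Its HFD+LYC values lay above all others by a small step (log2 fold change 0.45, SE 0.29, adjusted p = 0.359). In RNC Sel1l was at 68.6, 77.7 and 93.4 CPM in the control, 81.0, 58.2 and 80.8 CPM in the HFD and 108, 47.0 and 97.7 CPM in the HFD+LYC RNC libraries, with overlap.

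**Figure D3:**
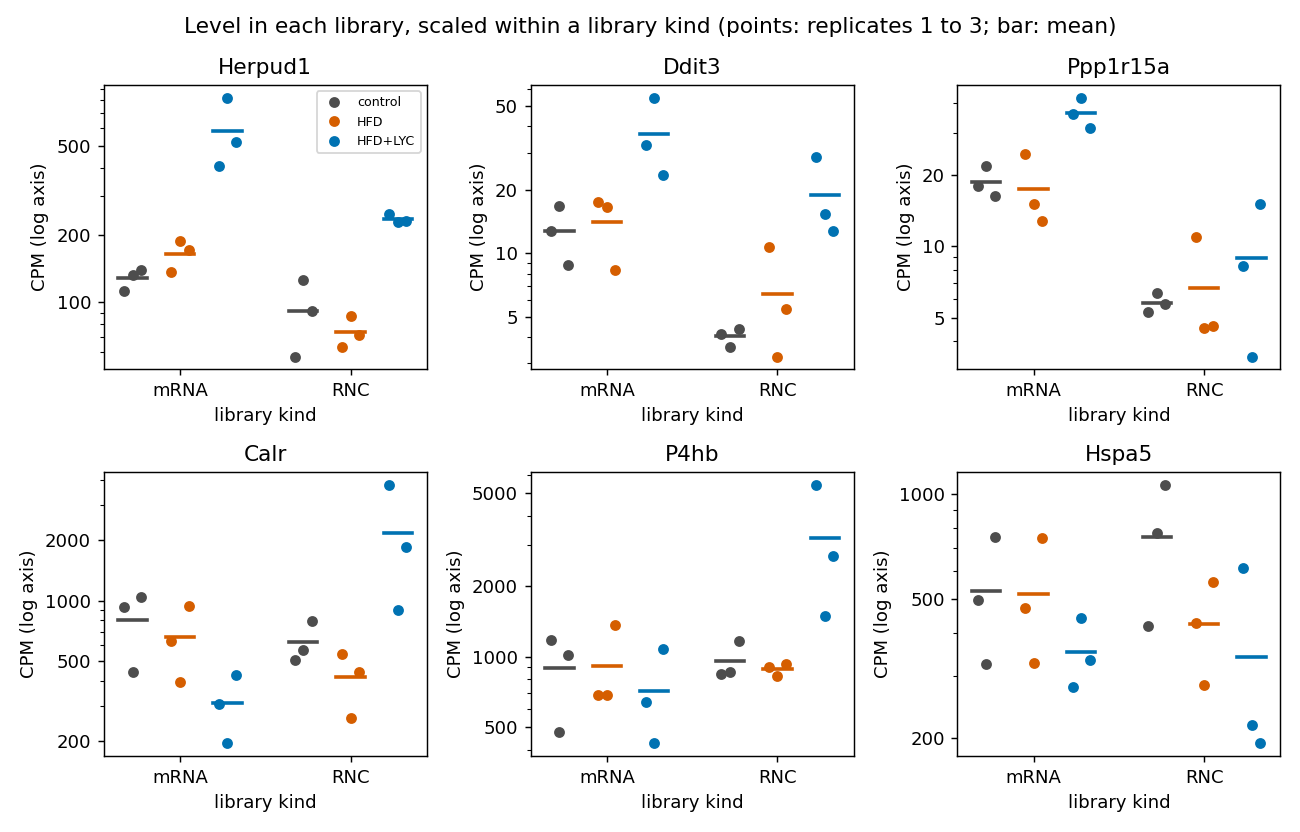
CPM (log axis) of 6 genes in each library, by library kind and diet; points are replicates 1 to 3 and bars group means, and scaling was done within each kind. The HFD+LYC points of Herpud1 and Ddit3 lie above the other diets in both kinds, those of Ppp1r15a in mRNA only, and those of Calr and P4hb in RNC only, while the Hspa5 groups overlap.

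Among the lectin chaperones, Calr was called higher in RNC and lay lower, uncalled, in mRNA. In mRNA Calr was at 929, 443 and 1038 CPM in the control, 632, 394 and 944 CPM in the HFD and 306, 195 and 425 CPM in the HFD+LYC mRNA libraries. In RNC it was at 504, 566 and 795 CPM in the control, 543, 260.4 and 441 CPM in the HFD and 3781, 902 and 1842 CPM in the HFD+LYC RNC libraries. As scaled CPM the HFD+LYC values were the highest of the RNC libraries, whereas in mRNA they lay below all control values and overlapped HFD. In the deposited RPKM, not scaled here, HFD+LYC RNC replicate 2 was at 374, above every HFD library but below control replicate 3 at 435. In RNC Calr rose 5.24-fold over HFD, with means from 415 ± 143 to 2175 ± 1468 CPM (log2 fold change 2.39, SE 0.52, adjusted p = 0.00781), a call kept in all 16 alternatives, and without HFD+LYC replicate 1, the highest library, the log2 fold change was 1.74 (adjusted p = 0.0108). Against control the rise was 3.50-fold (log2 fold change 1.81, SE 0.51, adjusted p = 0.0262), and it did not pass without control replicate 1, 2 or 3 or HFD+LYC replicate 1 (adjusted p 0.0522 to 0.103). In mRNA the difference from HFD did not pass (log2 fold change -1.09, SE 0.47, adjusted p = 0.184), and against control DESeq2 called Calr lower (adjusted p = 0.0237) where edgeR did not (adjusted p = 0.113). Canx, the membrane-bound relative of Calr, was at 192, 88.1 and 174 CPM in the control, 134, 98.5 and 326 CPM in the HFD and 67.1, 60.8 and 86.9 CPM in the HFD+LYC mRNA libraries, with every HFD+LYC value below every other (log2 fold change -1.38, SE 0.47, adjusted p = 0.115 against HFD, and 0.0353 with DESeq2). In RNC Canx was at 146, 180.2 and 244 CPM in the control, 94.8, 172 and 195 CPM in the HFD and 288, 121 and 113 CPM in the HFD+LYC RNC libraries, and its groups overlapped.

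Of the Hsp70 and Hsp90 chaperones and their partners, Hyou1 was called higher in RNC against HFD, while Hspa5 and Hsp90b1 were called only under some alternatives, and then lower. Hspa5, the main ER Hsp70 and a standard readout of ER stress, was at 496, 325 and 753 CPM in the control, 470.4, 327 and 748 CPM in the HFD and 280.1, 440.0 and 333 CPM in the HFD+LYC mRNA libraries. In RNC Hspa5 was at 419, 772 and 1062 CPM in the control, 425, 284 and 557 CPM in the HFD and 613, 218 and 193 CPM in the HFD+LYC RNC libraries. The groups overlapped in both kinds, and against HFD the log2 fold change was -0.55 in mRNA and -0.31 in RNC (SE 0.43 and 0.51). Hyou1, the nucleotide exchange factor of Hspa5, was at 98.0, 85.0 and 179 CPM in the control, 102, 52.1 and 137 CPM in the HFD and 87.7, 38.2 and 85.2 CPM in the HFD+LYC mRNA libraries. In RNC Hyou1 was at 55.2, 85.5 and 159.9 CPM in the control, 72.6, 25.8 and 54.9 CPM in the HFD and 408, 104 and 173 CPM in the HFD+LYC RNC libraries. Its HFD+LYC RNC values lay above all HFD values and overlapped control. In RNC Hyou1 rose 4.48-fold over HFD, with means from 51.1 ± 23.6 to 228 ± 159.6 CPM (log2 fold change 2.16, SE 0.60, adjusted p = 0.0243), and the call was lost without HFD replicate 2 or 3 or HFD+LYC replicate 1 (adjusted p 0.0599 to 0.0931) and with unscaled totals. Hsp90b1 was at 750.5, 390.4 and 1269 CPM in the control, 737, 431 and 925 CPM in the HFD and 332, 292 and 498 CPM in the HFD+LYC mRNA libraries. In RNC Hsp90b1 was at 611, 865 and 1295 CPM in the control, 795, 454 and 763 CPM in the HFD and 1016, 309 and 408 CPM in the HFD+LYC RNC libraries, and neither kind passed. With unscaled totals Hspa5 was called lower in RNC against HFD (log2 fold change -1.16, adjusted p = 0.0482) and control (adjusted p = 0.00679), as was Hsp90b1 (log2 fold change -1.08, adjusted p = 0.0317 and 0.00928). Both were called lower against control when HFD+LYC replicate 1 was left out, Hspa5 at -1.86 (adjusted p = 0.0116) and Hsp90b1 at -1.36 (adjusted p = 0.0249).

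The J-domain proteins that deliver clients to Hspa5 did not pass between diets with all libraries scaled. Dnajb9 was at 18.9, 10.7 and 27.7 CPM in the control, 10.8, 17.1 and 34.9 CPM in the HFD and 10.5, 15.5 and 15.1 CPM in the HFD+LYC mRNA libraries. In RNC Dnajb9 was at 17.8, 28.1 and 29.8 CPM in the control, 13.7, 20.9 and 21.4 CPM in the HFD and 23.8, 9.59 and 4.69 CPM in the HFD+LYC RNC libraries. HFD+LYC replicates 2 and 3 were the lowest RNC libraries for it. When HFD+LYC replicate 1 was left out Dnajb9 was called lower in RNC against HFD (log2 fold change -1.40, adjusted p = 0.0285) and control (adjusted p = 0.0106), and with unscaled totals against control (adjusted p = 0.0270). Dnajb11 was at 74.9, 44.2 and 110.3 CPM in the control, 60.3, 38.6 and 96.0 CPM in the HFD and 61.2, 79.6 and 54.1 CPM in the HFD+LYC mRNA libraries. In RNC Dnajb11 was at 47.6, 78.0 and 116 CPM in the control, 48.6, 37.6 and 50.4 CPM in the HFD and 119, 48.1 and 61.6 CPM in the HFD+LYC RNC libraries. Its groups overlapped in both kinds. Dnajc3, which also restrains PERK, was at 125, 63.9 and 191 CPM in the control, 105, 74.6 and 218 CPM in the HFD and 74.1, 62.6 and 87.2 CPM in the HFD+LYC mRNA libraries. In RNC Dnajc3 was at 108, 161 and 225 CPM in the control, 106, 114 and 154 CPM in the HFD and 102, 116 and 61.9 CPM in the HFD+LYC RNC libraries, again with overlap.

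P4hb stood out among the disulfide isomerases. In mRNA P4hb, which is also a subunit of the collagen prolyl hydroxylase, was at 1183, 477 and 1014 CPM in the control, 683, 686 and 1370.3 CPM in the HFD and 639, 426 and 1084 CPM in the HFD+LYC mRNA libraries. In RNC it was at 841, 859 and 1172 CPM in the control, 906, 826 and 932 CPM in the HFD and 5452, 1498 and 2702 CPM in the HFD+LYC RNC libraries. As scaled CPM the HFD+LYC RNC values lay above the other 6, and the mRNA groups overlapped. In the deposited RPKM, not scaled here, HFD+LYC RNC replicate 2 was at 475, above every HFD library but below control replicate 3 at 490. In RNC P4hb rose 3.62-fold over HFD, with means from 888 ± 55.5 to 3217 ± 2027 CPM (log2 fold change 1.86, SE 0.44, adjusted p = 0.0114), and 3.36-fold over control (log2 fold change 1.75, SE 0.44, adjusted p = 0.0151). The first call was lost without HFD replicate 2 (adjusted p = 0.0532), the second without control replicate 1 or 2 (adjusted p 0.0674 and 0.0720) and with only the 6 libraries compared. Pdia3, the partner of Calr and Canx, was at 534, 204 and 709 CPM in the control, 375, 238 and 618 CPM in the HFD and 198, 160.0 and 334 CPM in the HFD+LYC mRNA libraries. In RNC Pdia3 was at 513, 574 and 817 CPM in the control, 472, 308 and 555 CPM in the HFD and 971, 425 and 523 CPM in the HFD+LYC RNC libraries. Pdia3 overlapped between diets in both kinds. Pdia4 was at 164, 104 and 270.2 CPM in the control, 157, 106 and 213 CPM in the HFD and 101, 96.7 and 115 CPM in the HFD+LYC mRNA libraries. In RNC Pdia4 was at 119.8, 198 and 292 CPM in the control, 166, 99.7 and 167 CPM in the HFD and 439, 98.0 and 101 CPM in the HFD+LYC RNC libraries. HFD+LYC replicate 1 was the highest RNC library for Pdia4, and replicates 2 and 3 were among the lowest. Pdia6 was at 208, 79.5 and 275 CPM in the control, 124, 96.8 and 337 CPM in the HFD and 112, 136 and 129 CPM in the HFD+LYC mRNA libraries. In RNC Pdia6 was at 147, 215 and 325 CPM in the control, 141, 121 and 195 CPM in the HFD and 596, 161 and 219 CPM in the HFD+LYC RNC libraries, with the same overlap (log2 fold change 1.10, SE 0.49, adjusted p = 0.139 against HFD, and 0.0424 without HFD+LYC replicate 2).

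Sdf2l1, Creld2 and Manf, small ER proteins induced by stress, varied severalfold between livers of a diet. Sdf2l1, a partner of Dnajb11, was at 42.3, 11.7 and 79.3 CPM in the control, 25.2, 7.29 and 37.4 CPM in the HFD and 18.9, 6.79 and 11.7 CPM in the HFD+LYC mRNA libraries. In RNC Sdf2l1 was at 23.7, 52.7 and 84.4 CPM in the control, 37.5, 6.26 and 26.8 CPM in the HFD and 109, 30.1 and 34.4 CPM in the HFD+LYC RNC libraries. HFD replicate 2 was its lowest RNC library. Creld2, a disulfide isomerase-like protein, was at 35.2, 23.6 and 99.4 CPM in the control, 46.3, 18.6 and 40.1 CPM in the HFD and 70.9, 93.8 and 37.7 CPM in the HFD+LYC mRNA libraries. In RNC Creld2 was at 19.7, 63.9 and 138 CPM in the control, 38.6, 10.5 and 28.3 CPM in the HFD and 109.7, 38.2 and 39.2 CPM in the HFD+LYC RNC libraries. It was the only chaperone above HFD in HFD+LYC mRNA (log2 fold change 0.95, SE 0.54, adjusted p = 0.296). Manf, a secreted trophic factor kept in the ER, was at 125, 44.9 and 173 CPM in the control, 78.4, 36.4 and 115 CPM in the HFD and 55.7, 46.2 and 68.4 CPM in the HFD+LYC mRNA libraries. In RNC Manf was at 97.3, 230.1 and 298 CPM in the control, 119, 54.1 and 119 CPM in the HFD and 290.2, 172 and 104 CPM in the HFD+LYC RNC libraries. None of the 3 passed in a comparison of diets, and without control replicate 2 Sdf2l1 was called lower than control in HFD+LYC mRNA (adjusted p = 0.0416).

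As a group the 15 chaperones lay lower in HFD+LYC than in HFD mRNA and higher in RNC, the latter only with scaled libraries (7 of 15 above HFD with unscaled totals), and few were called. In mRNA 14 of 15 were below HFD with a median log2 fold change of -0.60, against -0.04 for all genes, and 0 were called. 2 had an unadjusted p under 0.05 and DESeq2 called 1. With the replicate number across diets as a block, edgeR called Calr and Canx lower (adjusted p = 0.0470 and 0.0443). These numbers were not taken to pair the samples. Without HFD replicate 3 the median was -0.19 with 11 of 15 below HFD, and without HFD replicate 2 it was -0.83. In RNC 11 of 15 were above HFD with a median of 0.74, against -0.29 for all genes, and 3 were called. When HFD+LYC replicate 1 was left out the median was 0.28 with 9 of 15 above. With unscaled library totals the chaperone median was -0.05, while the median of all genes moved to -0.87, so the direction of the group in RNC is relative to the other genes. Against control the RNC median was -0.08 with 7 of 15 above, and it ran from -0.75 with unscaled totals to 0.26 without control replicate 3. The 8 chaperones with ERSE or ERSE-II had a median against HFD of -0.70 in mRNA and 0.46 in RNC. The 5 chaperones whose window had neither were at -0.61 and 0.56.

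In the comparisons of diets Ddit3 was called higher among the stress transcription factors, and Atf4, Atf6 and Xbp1 were each called lower in 1 RNC comparison. Ddit3 (CHOP), the factor tied to stress-induced cell death, was at 12.7, 16.8 and 8.76 CPM in the control, 17.5, 16.5 and 8.30 CPM in the HFD and 32.7, 54.6 and 23.5 CPM in the HFD+LYC mRNA libraries. In RNC Ddit3 was at 4.14, 3.58 and 4.35 CPM in the control, 10.6, 3.23 and 5.41 CPM in the HFD and 28.6, 15.3 and 12.7 CPM in the HFD+LYC RNC libraries. The HFD+LYC values lay above the other 6 in both kinds as scaled CPM. In the deposited RPKM the RNC means were 12.5 ± 1.89 in HFD+LYC, 7.98 ± 3.63 in HFD and 5.00 ± 0.579 in control livers. There the SDs of HFD+LYC and HFD overlapped. Against control Ddit3 rose 2.89-fold in mRNA, with means from 12.8 ± 4.03 to 36.9 ± 16.0 CPM (log2 fold change 1.53, SE 0.40, adjusted p = 0.0466), and 4.67-fold in RNC, with means from 4.02 ± 0.399 to 18.9 ± 8.49 CPM (log2 fold change 2.22, SE 0.54, adjusted p = 0.0130). Against HFD it did not pass in mRNA (log2 fold change 1.39, SE 0.39, adjusted p = 0.0762) or in RNC (log2 fold change 1.57, SE 0.53, adjusted p = 0.0533). DESeq2 called it higher against HFD in both (adjusted p = 0.0175 and 0.0120). Ddit3 also passed against HFD in mRNA with no filter (adjusted p = 0.0493), and in RNC without HFD replicate 1 (0.0229), HFD+LYC replicate 2 (0.0404) or HFD+LYC replicate 3 (0.0327). The mRNA call against control was lost under 9 of 16 alternatives, among them without control replicate 1 or 3, HFD replicate 1 or 2 or HFD+LYC replicate 1 or 2 (adjusted p 0.0576 to 0.197). The RNC call against control was lost without control replicate 1, 2 or 3 (adjusted p 0.0508 to 0.0613) and with unscaled totals (adjusted p = 0.0717). The span of Ddit3 overlaps that of Mbd6 in the annotation, and the use of strand is not given, so reads in the shared part may come from either gene. How many reads lie there was not measured. The same holds for Hspa5 (with Rabepk), Pdia3 (with Catsper2), Pdia4 (with Mir704), Pdia6 (with Atp6v1c2) and Dnajb11 (with Gm30505).

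Atf4, Atf6 and Xbp1 were called lower in RNC, and none of these calls was stable. Atf4, the factor translated under eIF2alpha phosphorylation, was at 254, 211 and 174 CPM in the control, 257, 149 and 168 CPM in the HFD and 192, 161 and 135 CPM in the HFD+LYC mRNA libraries. In RNC Atf4 was at 93.7, 89.1 and 72.6 CPM in the control, 103, 66.9 and 91.1 CPM in the HFD and 51.1, 45.8 and 60.7 CPM in the HFD+LYC RNC libraries. Its HFD+LYC RNC values lay below the other 6, and its RNC mean fell from 87.0 ± 18.4 to 52.5 ± 7.51 CPM (log2 fold change -0.73, SE 0.24, adjusted p = 0.0485 against HFD). Against control Atf4 did not pass in RNC (adjusted p = 0.0572), but did with DESeq2 (0.0304), without HFD replicate 1 (0.0468) and without HFD+LYC replicate 3 (0.0453). Atf6 was at 38.3, 21.4 and 34.8 CPM in the control, 29.7, 29.6 and 57.4 CPM in the HFD and 25.2, 18.2 and 30.7 CPM in the HFD+LYC mRNA libraries. In RNC Atf6 was at 25.7, 27.8 and 26.5 CPM in the control, 28.6, 35.9 and 34.8 CPM in the HFD and 23.4, 19.2 and 15.4 CPM in the HFD+LYC RNC libraries. The HFD+LYC RNC values were again the lowest, with a mean of 19.3 ± 4.00 CPM against 33.1 ± 3.94 CPM in HFD (log2 fold change -0.78, SE 0.25, adjusted p = 0.0445). Xbp1, given above in RNC, was at 324, 244 and 237 CPM in the control, 259, 123 and 193 CPM in the HFD and 153, 149.6 and 109 CPM in the HFD+LYC mRNA libraries. Its RNC mean fell from 192 ± 50.7 in control to 83.8 ± 38.1 CPM (log2 fold change -1.20, SE 0.36, adjusted p = 0.0335), and all HFD+LYC mRNA values lay below all control values (log2 fold change -0.97, SE 0.35, adjusted p = 0.128, and 0.0338 with DESeq2). The Atf4 call was lost under 12 of 16 alternatives, for instance without control replicate 1, 2 or 3, HFD replicate 1 or 3 or HFD+LYC replicate 1 or 2 (adjusted p 0.0624 to 0.138). That of Atf6 was lost under 11, for instance without control replicate 1, 2 or 3, HFD replicate 2 or 3 or HFD+LYC replicate 3 (adjusted p 0.0710 to 0.143). That of Xbp1 was lost under 8, for instance without control replicate 2 or 3, HFD replicate 3 or HFD+LYC replicate 2 or 3 (adjusted p 0.0559 to 0.112).

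Atf5 and the sensor Ern1 were not called between diets with all libraries. Atf5, a relative of Atf4, was at 274, 167 and 245 CPM in the control, 243, 290.4 and 462 CPM in the HFD and 202, 85.4 and 219 CPM in the HFD+LYC mRNA libraries. Its HFD+LYC mRNA values lay below all HFD values (log2 fold change -0.98, SE 0.42, adjusted p = 0.185). In RNC Atf5 was at 130.2, 186 and 179 CPM in the control, 153, 229.9 and 217 CPM in the HFD and 141, 312 and 246 CPM in the HFD+LYC RNC libraries, and without HFD+LYC replicate 1 it was called higher than control (adjusted p = 0.0476). The span of Atf5 overlaps that of Nup62, so reads in the shared part may come from either gene. Ern1 was at 4.07, 10.5 and 10.03 CPM in the control, 12.3, 11.2 and 11.7 CPM in the HFD and 6.19, 1.77 and 2.56 CPM in the HFD+LYC mRNA libraries. Every HFD+LYC mRNA value lay below every HFD value, which did not pass (log2 fold change -1.75, SE 0.48, adjusted p = 0.0719) but did with DESeq2 (0.0106) and with no filter (0.0429). In RNC Ern1 was at 2.03, 1.03 and 2.33 CPM in the control, 1.75, 1.52 and 1.92 CPM in the HFD and 5.79, 8.63 and 0 CPM in the HFD+LYC RNC libraries, a spread from 0 to the highest value of any RNC library within HFD+LYC. Without HFD+LYC replicate 3, the library at 0, Ern1 was called higher in RNC against HFD (adjusted p = 0.0230) and control (0.0254).

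The ATF4 targets were sparse in RNC of HFD+LYC livers. Asns, which makes asparagine, had 45 reads over the control, 20 over the HFD and 0 over the HFD+LYC RNC libraries. It was at 1.32, 1.51 and 0.854 CPM in the control, 0.635, 0.696 and 0.342 CPM in the HFD and 0, 0 and 0 CPM in the HFD+LYC RNC libraries. The sources used here do not say whether low counts were removed from the HFD+LYC RNC libraries before deposit, and if they were, a 0 there is no count of 0 and the bounds given next do not hold. Taking each 0 as counted, with a floor of 3 reads over the group, Asns was at least 3.18-fold lower than HFD (adjusted p = 0.0101) and at least 7.14-fold lower than control (adjusted p = 0.00496). Sesn2, a stress-induced brake on mTORC1, was filtered out of the RNC test and was at 0.970, 0.238 and 0.621 CPM in the control, 0.635, 0.759 and 0.753 CPM in the HFD and 0, 0 and 0 CPM in the HFD+LYC RNC libraries, which on the same terms is at least 4.29-fold lower than HFD and 3.49-fold lower than control. Trib3, a pseudokinase induced by Atf4 and Ddit3, was at 3.61, 3.34 and 2.95 CPM in the control, 0.635, 2.66 and 3.28 CPM in the HFD and 0, 2.11 and 0 CPM in the HFD+LYC RNC libraries. Chac1, an enzyme that degrades glutathione, was at 0.793, 1.03 and 0.698 CPM in the control, 1.75, 0.886 and 1.64 CPM in the HFD and 0, 3.84 and 0 CPM in the HFD+LYC RNC libraries. Replicates 1 and 3 had 0 reads of both, whereas replicate 2 had reads of both. Without it both were called lower than HFD (adjusted p = 0.00784 for Trib3 and 0.00529 for Chac1) and control (0.00566 and 0.00995). That removes the only HFD+LYC RNC library with reads of them, so these calls follow from the library left out. With no filter Sesn2 was called lower than HFD (0.0258) and control (0.0314). Many genes of low level are at 0 in these 3 libraries, and the part of this in the 4 genes was not tested. Floors cover counting error only.

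In mRNA none of the ATF4 targets tested was called between diets. Asns was at 1.18, 3.03 and 0.381 CPM in the control, 0.517, 0.569 and 0.889 CPM in the HFD and 0.147, 1.77 and 0.853 CPM in the HFD+LYC mRNA libraries and was not tested. Sesn2 was at 2.89, 5.51 and 3.55 CPM in the control, 4.55, 7.51 and 4.25 CPM in the HFD and 8.70, 6.93 and 5.85 CPM in the HFD+LYC mRNA libraries. The HFD+LYC values of Sesn2 lay above all control values and overlapped HFD. Trib3 was at 6.96, 4.13 and 7.11 CPM in the control, 4.86, 4.55 and 8.00 CPM in the HFD and 10.2, 5.16 and 8.17 CPM in the HFD+LYC mRNA libraries, with overlap. Chac1 was at 3.41, 2.20 and 1.52 CPM in the control, 1.96, 1.02 and 3.06 CPM in the HFD and 3.10, 7.88 and 5.97 CPM in the HFD+LYC mRNA libraries, and its HFD+LYC values lay above all HFD values (log2 fold change 1.47, SE 0.52, adjusted p = 0.122). The 3 tested in mRNA all lay above HFD, with a median log2 fold change of 0.43.

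Ppp1r15a (GADD34), the stress-induced subunit that brings phosphatase to eIF2alpha, came nearest to passing against HFD in mRNA after Herpud1, at the same adjusted p as Ern1. It was at 17.9, 21.8 and 16.2 CPM in the control, 24.5, 15.0 and 12.8 CPM in the HFD and 36.0, 42.0 and 31.3 CPM in the HFD+LYC mRNA libraries. All HFD+LYC values lay above the other 6, without passing against HFD (log2 fold change 1.06, SE 0.29, adjusted p = 0.0719) or control (log2 fold change 0.97, SE 0.29, adjusted p = 0.0764). DESeq2 called it higher in both (adjusted p = 0.0156 and 0.0260). In RNC Ppp1r15a was at 5.29, 6.36 and 5.74 CPM in the control, 10.96, 4.56 and 4.65 CPM in the HFD and 8.28, 3.45 and 15.0 CPM in the HFD+LYC RNC libraries, with overlap. It overlaps Tulp2 in the annotation. The constitutive subunit Ppp1r15b was at 95.6, 63.0 and 91.5 CPM in the control, 96.1, 98.8 and 111 CPM in the HFD and 110.4, 58.3 and 100.2 CPM in the HFD+LYC mRNA libraries. In RNC Ppp1r15b was at 60.8, 73.0 and 74.8 CPM in the control, 86.2, 81.2 and 81.4 CPM in the HFD and 56.1, 127 and 63.1 CPM in the HFD+LYC RNC libraries, and neither kind passed.

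Of the translocon subunits Sec61b was called in a comparison of diets and Sec61a1 was not. Sec61a1, the channel itself, was at 142, 68.9 and 128 CPM in the control, 76.4, 75.4 and 139.8 CPM in the HFD and 116, 67.8 and 106 CPM in the HFD+LYC mRNA libraries. In RNC Sec61a1 was at 75.8, 110.2 and 123 CPM in the control, 75.4, 63.3 and 78.2 CPM in the HFD and 245, 97.8 and 82.3 CPM in the HFD+LYC RNC libraries. Its HFD+LYC RNC values lay above all HFD values as scaled CPM, without passing (log2 fold change 0.97, SE 0.40, adjusted p = 0.108). The difference passed without HFD+LYC replicate 3 (adjusted p = 0.0409) and with a mean CPM of at least 10 (0.0463). In the deposited RPKM, not scaled here, the RNC means were 25.7 ± 6.15 in HFD+LYC and 27.1 ± 2.49 in HFD. Sec61b, a small tail-anchored subunit, was at 119, 31.6 and 101 CPM in the control, 58.5, 54.3 and 109 CPM in the HFD and 21.2, 13.6 and 66.0 CPM in the HFD+LYC mRNA libraries. In RNC Sec61b was at 105, 103 and 108 CPM in the control, 74.8, 65.2 and 96.5 CPM in the HFD and 68.1, 60.04 and 30.8 CPM in the HFD+LYC RNC libraries. Its HFD+LYC RNC values lay below all control values, and the mean fell from 106 ± 2.59 to 53.0 ± 19.6 CPM (log2 fold change -0.998, SE 0.30, adjusted p = 0.0365). That call was lost under 10 of 16 alternatives, among them without control replicate 1, 2 or 3, HFD replicate 1 or 3 or HFD+LYC replicate 3 (adjusted p 0.0502 to 0.0991).

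Chaperone transcripts lay higher in RNC than in mRNA, relative to other transcripts, in all 3 diets, and in HFD+LYC livers most of them passed the test with scaled libraries. The comparison of RNC with mRNA in 1 fit of the 18 libraries asked how much of each transcript is bound to ribosomes, relative to the other transcripts. In control livers all 15 chaperones were above 0 with a median log2 ratio of 1.24, against -0.07 for all genes, and in HFD livers all 15 with 0.80 against -0.05. None of the 32 was called in control (2.13% of all genes) or HFD livers (0.101%). Of the 32, 15 in control and 5 in HFD had an unadjusted p under 0.05, and DESeq2 called 4 and 1. The smallest p above 0 was that of Manf in both diets (log2 ratio 1.81, adjusted p = 0.0735 in control, and 1.31, adjusted p = 0.192 in HFD). The smallest p below 0 was that of Sesn2 (-1.74, adjusted p = 0.0920, and -1.93, adjusted p = 0.114), and in control livers it passed without HFD+LYC replicate 2 (adjusted p = 0.0479). With unscaled library totals 13 of 15 chaperones were above 0 in control and 11 in HFD livers, with all genes at medians of -0.80 and -0.74.

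In HFD+LYC livers 15 of the 32 were called higher in RNC than in mRNA and 4 lower, beside 12.8% and 30.6% of all genes. Higher were 12 of the 15 chaperones (all but Hspa5, Dnajb9 and Creld2), both Sec61 subunits and Atf5. Lower were Sesn2, Asns, Trib3 and Atf4. Among the genes called higher the largest log2 ratios were those of Calr (log2 ratio 3.72, SE 0.57, adjusted p = 0.000103), Sdf2l1 (3.12) and P4hb (3.07). The median of the chaperones was 2.18, and that of all genes -0.51. The calls of Calr, P4hb, Pdia3, Manf, Hyou1 and Sesn2 held in every alternative. A liver was left out with both of its libraries. Ppp1r15a was called lower without HFD replicate 1 (adjusted p = 0.0494) or HFD+LYC replicate 3 (0.0102), Chac1 lower without HFD+LYC replicate 2 (0.000721), Ern1 higher without HFD+LYC replicate 3 (0.0334) and Ppp1r15b higher without HFD+LYC replicate 1 or 3 (0.0247 and 0.0494). The Chac1 and Ern1 calls follow from the liver left out, which held the only HFD+LYC RNC reads of Chac1 or the only HFD+LYC RNC library without Ern1 reads. With the liver as a block Ppp1r15a was also called lower (log2 change -1.31, adjusted p = 0.0483). Without HFD+LYC replicate 1 the calls of Hsp90b1, Pdia4, Pdia6, Dnajb11, Dnajc3, Sec61a1, Sec61b, Trib3 and Atf4 did not pass, with adjusted p from 0.0819 to 0.339. Without HFD+LYC replicate 2 those of Atf5 (adjusted p = 0.122), Dnajc3 (0.190), Sec61b (0.167), Asns (0.0945) and Atf4 (0.129) did not pass. Without HFD+LYC replicate 3 those of Dnajb11 (0.0950), Asns (0.0641) and Trib3 (0.0929) did not, nor did Dnajb11 without HFD replicate 1 (0.0611). Those of Atf4 and Trib3 were also lost without control replicate 1, 2 or 3 or HFD replicate 3, and that of Trib3 without HFD replicate 2 (adjusted p at least 0.0502). With unscaled totals 9 of 15 chaperones were above 0 and the median of all genes was -1.81. The split of the calls then turned to 5 higher and 10 lower, with 9 of the 19 calls kept, and the share of all genes called with those totals is not given. Canx, Hsp90b1, Pdia4, Pdia6, Dnajb11, Dnajc3, Sdf2l1, both Sec61 subunits and Atf5 were no longer called higher, and Xbp1, Ddit3, Edem1, Herpud1, Sel1l and Ppp1r15a were called lower, so that 5 of 15 chaperones stayed called.

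The log2 ratio of RNC to mRNA within each liver is given for 5 genes. For Calr it was 0.07, 1.34 and 0.55 in the control group, 0.77, 0.37 and -0.15 in the HFD group and 4.53, 3.10 and 3.01 in the HFD+LYC group. For Hyou1 it was 0.12, 0.99 and 0.77, 0.50, -0.04 and -0.37 and 3.12, 2.33 and 1.91 in the same order. The 3 HFD+LYC livers exceeded the other 6 for both genes. For P4hb it was 0.46, 1.83 and 1.14, 1.39, 1.24 and 0.39 and 4.00, 2.71 and 2.22, also without overlap. For Hspa5 it was 0.70, 2.23 and 1.43, 0.84, 0.76 and 0.53 and 2.03, -0.12 and 0.11, and the diets overlapped. For Herpud1 it was -0.02, 0.90 and 0.32, -0.12, -0.15 and -0.31 and 0.19, -0.94 and -0.28, where HFD+LYC overlapped both other diets and HFD lay below control. Over the 32 genes the ratios did not overlap between HFD+LYC and HFD for 5 above (8.03% of all genes) and 3 below (25%), or 33% in either direction. Between HFD+LYC and control they did not for 3 above (6.79% of all genes) and 4 below (24.2%), and between HFD and control for 1 above (2.87% of all genes) and 1 below (2.13%).

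The diet effect on this ratio was tested as the difference of the RNC and mRNA effects. Between HFD+LYC and HFD, 3 of 32 genes were called higher (Calr, Hyou1, P4hb) and 2 lower (Sesn2, Asns), beside 3.42% and 13% of all genes. The ratio of Calr rose by 3.42 (SE 0.74, adjusted p = 0.00418), that of Hyou1 by 2.56 (SE 0.80, adjusted p = 0.0350) and that of P4hb by 2.15 (SE 0.70, adjusted p = 0.0435). With the liver as a block, 3 of 32 were called, Calr (0.00791), Hyou1 (0.0100) and Sesn2 (0.0448), while P4hb (0.0503) and Asns (0.0588) did not pass (adjusted p in parentheses). The Hyou1 call was lost without control replicate 2, HFD replicate 1, 2 or 3 or HFD+LYC replicate 1 (adjusted p 0.0512 to 0.146). The P4hb call was lost without control replicate 1 or 3, HFD replicate 1, 2 or 3 or HFD+LYC replicate 1 (adjusted p 0.0597 to 0.195). The Asns call was lost without control replicate 1, HFD replicate 1, 2 or 3 or HFD+LYC replicate 2 or 3 (adjusted p 0.0629 to 0.114). With unscaled totals the Hyou1 and P4hb calls were lost too (adjusted p = 0.0621 and 0.0616). Without HFD+LYC replicate 2 Trib3 and Chac1 were called lower (adjusted p = 0.00170 and 0.00197), and without HFD+LYC replicate 3 Ern1 was called higher (0.00695). Replicate 2 held the only HFD+LYC RNC reads of Trib3 and Chac1, and replicate 3 alone had no Ern1 read there, so these calls follow from the liver left out. Calr held in all 15 alternatives. As a group 14 of 15 chaperones were above 0 with a median of 1.29 against -0.41 for all genes, and 9 of 15 with 0.50 against -1.004 with unscaled totals.

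Against control, Calr was called higher (log2 change of the ratio 3.14, adjusted p = 0.00770) and Sesn2 and Asns lower, beside 2.77% and 12% of all genes. With the liver as a block, Calr and Sesn2 were called, Asns was not (adjusted p = 0.0524) and Hyou1 (log2 change 1.83, adjusted p = 0.0277) was called higher. The Asns call was also lost without control replicate 1 or 3, HFD replicate 1, 2 or 3 or HFD+LYC replicate 2 or 3 (adjusted p 0.0599 to 0.110), and those of Calr and Sesn2 held without each liver. P4hb was called higher without HFD+LYC replicate 2 (0.0308) or 3 (0.0314), with DESeq2 (0.00760) and with a mean CPM of at least 10 (0.0385). Trib3 and Chac1 were called lower without HFD+LYC replicate 2 (0.00106 and 0.00618), and Ern1 higher without replicate 3 (0.0189), which again follows from the liver left out. Between HFD and control, 0 of 32 were called (0% of all genes), 0 had an unadjusted p under 0.05 and DESeq2 called 0. All 15 chaperones lay below 0 with a median of -0.50, against 0.02 for all genes, and without HFD replicate 3 the median was -0.07. The smallest p in this comparison belonged to Ddit3 above 0 (log2 fold change 0.52, SE 0.67, adjusted p = 1.00) and Herpud1 below 0 (log2 fold change -0.66, SE 0.44, adjusted p = 1.00).

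Chaperones and stress transcription factors were compared within each library by the mean log2 CPM of the 15 minus that of the 5. In mRNA the difference was 0.78, 0.14 and 1.69 for the control, 0.49, 0.18 and 1.27 for the HFD and 0.19, 0.25 and 0.59 for the HFD+LYC livers. In RNC it was 1.49, 1.95 and 2.52, 1.30, 1.04 and 1.56 and 2.70, 1.44 and 1.71. The diets overlapped in mRNA, where the means were 0.87 ± 0.78, 0.65 ± 0.56 and 0.35 ± 0.22. They overlapped in RNC as well, where the means were 1.99 ± 0.51, 1.30 ± 0.26 and 1.95 ± 0.67. The chaperones spread more than the factors: their mean log2 CPM ran from 6.45 to 8.00 over the mRNA libraries, while that of the factors ran from 6.19 to 6.68. In RNC the chaperones ran from 6.47 to 8.55 and the factors from 5.43 to 5.84. No test was run on these means, which hold a few chosen genes.

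**Figure D4:**
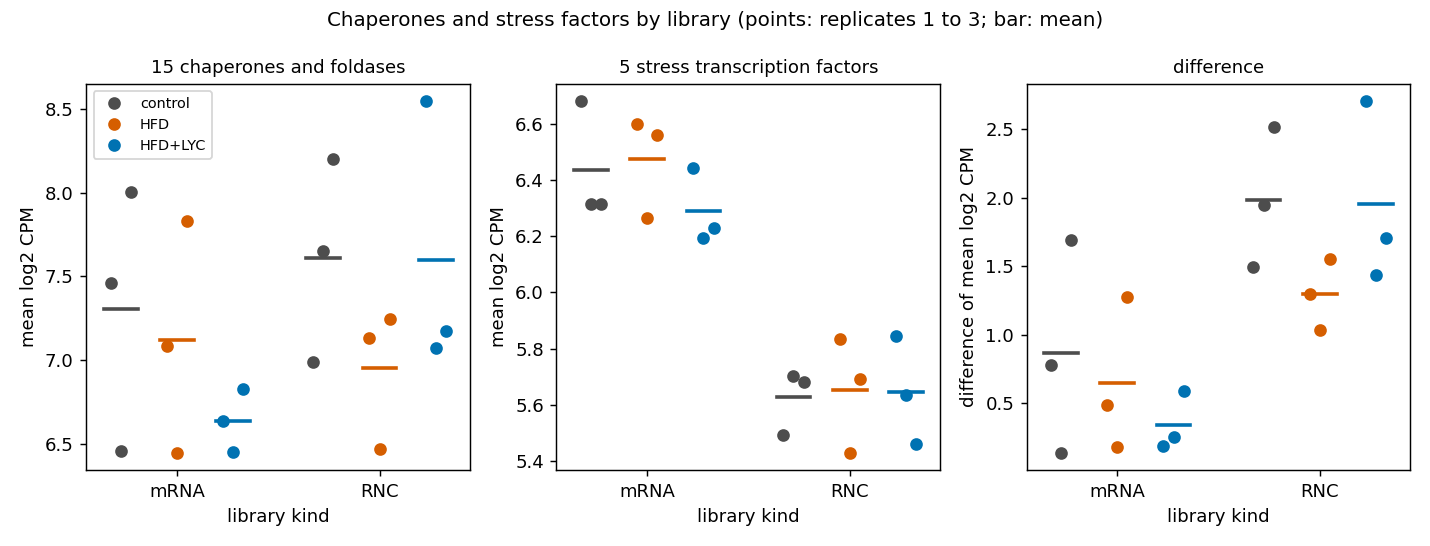
Mean log2 CPM of the 15 chaperones (left) and the 5 stress transcription factors (middle) and their difference (right), by library kind and diet; points are replicates 1 to 3 and bars group means. The chaperone points spread more than the factor points in all 6 groups, and the diets overlap in the right panel within each library kind.

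The change between HFD+LYC and HFD followed the GC content of transcripts across all genes, and the chaperones are given beside it. GC content was that of the longest coding transcript of each gene. Over the 11153 genes tested in RNC that had a value, Spearman's rho of GC content with the log2 fold change was 0.407, and over 12002 in mRNA it was 0.418. Genes of a library share its depth and base composition, so no p is given. In RNC the median log2 fold change was -1.05 for genes over 40% and up to 45% GC and 0.48 for genes over 55% and up to 60%. Each of the 15 chaperones lay above the median of its own range of GC in RNC, by 0.32 for Hspa5 to 3.02 for Calr. Calr, at exactly 50% GC, was placed in the range up to 50% (median -0.63), and the next range had a median of 0.003. The ranges were not matched for level, and many genes of low level are at 0 in HFD+LYC RNC. Hyou1 lay 2.16 and P4hb 1.85 above it. Herpud1 lay 1.67 above in RNC and 1.73 in mRNA. In mRNA 1 of 15 chaperones, Creld2, lay above the median of its range. Among the 15 chaperones rho was 0.854 in RNC and 0.482 in mRNA. Of the 5 stress transcription factors 1, Ddit3, lay above its range in RNC. The part of GC content in the diet effects was not tested.

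**Figure D5:**
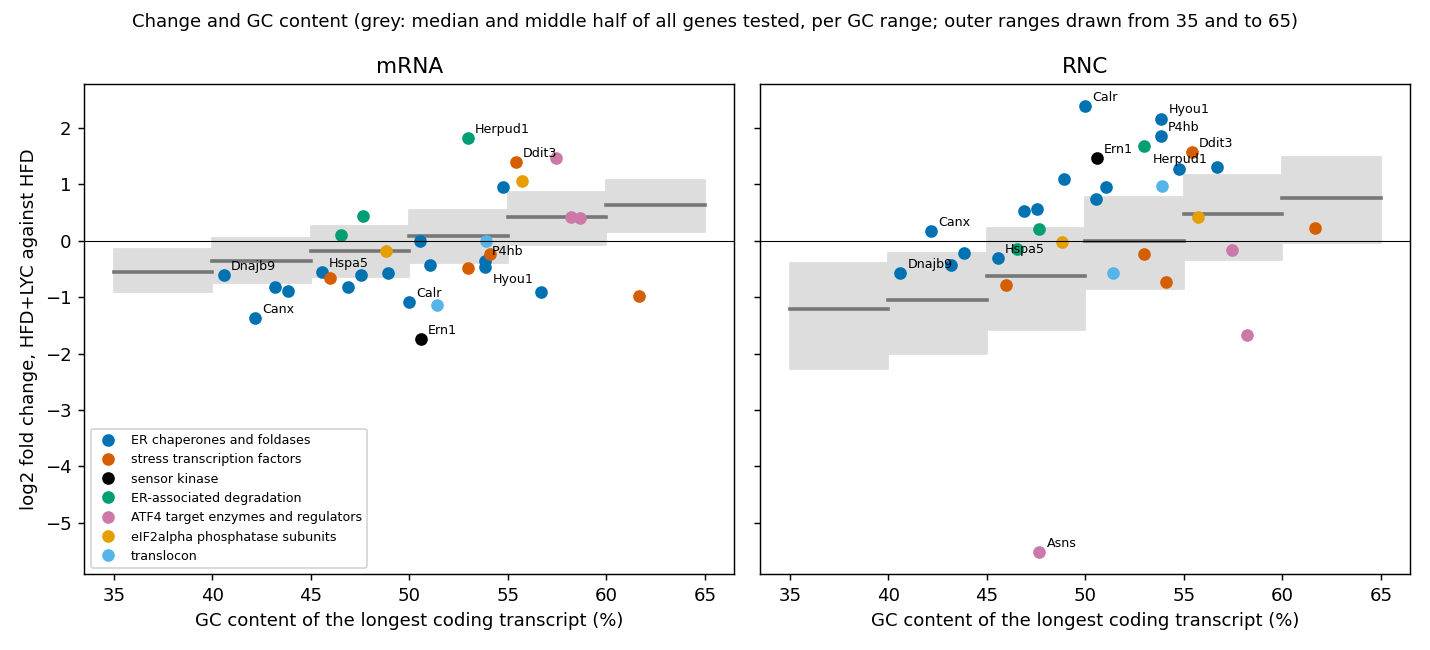
Log2 fold change of HFD+LYC against HFD (vertical axis) by GC content of the longest coding transcript in percent (horizontal axis), in mRNA (left) and RNC (right); points are the genes described here by role, and grey boxes and lines give the middle 50% and the median of all genes tested in each GC range. In RNC all 15 chaperones lie above the grey line of their range, and in mRNA only Creld2 does.

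Other genes of the pathway were read from 5 lists, of which 83 genes were found. In mRNA 3 of 78 were called higher in HFD+LYC than in HFD and 1 lower, beside 1.99% and 0.916% of all genes, with a median of -0.05. In RNC 19 of 76 were higher and 4 lower, beside 9.34% and 17.4% of all genes, with a median of 0.39 beside -0.29 for all genes. In the list of further folding enzymes 10 of 15 were called higher in RNC and 0 lower (median 1.56). Its smallest p was that of Txndc11, a thioredoxin domain protein of the ER, which rose from 9.36 ± 1.23 to 77.1 ± 27.5 CPM (log2 fold change 3.04, adjusted p = 0.000266). Of the translocation genes 3 of 17 were higher and 1 lower in RNC, led by Sec62 (log2 fold change 2.68, adjusted p = 0.000125). Of the degradation genes 2 of 14 were higher and 0 lower, led by Edem2 (2.03, adjusted p = 0.00167). The ATF4 targets had 1 of 15 higher and 3 lower, led by a fall of Cth, an enzyme of cysteine synthesis (-2.58, adjusted p = 0.000773). The sensors and factors had 3 of 15 higher, led by the kinase Eif2ak2 (2.15, adjusted p = 0.00279). In mRNA the called genes of these lists were Cebpb, Txndc11 and Ddit4, higher, and Spcs1, lower. With HFD against control 0 of 78 were called in mRNA and 0 of 76 in RNC, with 3 and 3 at an unadjusted p under 0.05.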

How the data were processed

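Poly(A) RNA from total RNA (mRNA) and from ribosome-nascent chain complexes pelleted through a sucrose cushion (RNC) was sequenced from mouse livers, 9 libraries of each kind. The authors deposited for each library a raw read count per gene and its RPKM, per the file headers. The submitters' processing notes name bcl2fastq and the mouse build mm10, and the sources used here do not give the aligner, the counting tool or the use of strand. Libraries held 4533729 to 12742436 counted reads. Groups follow the labels. RPKM served to rank levels of different genes and to show the RNC levels of some genes without the scaling. The replicates are separately named liver samples, and p-values measure the spread between these samples.

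Counts were fitted with edgeR 4.0.16 in R 4.3.3 (TMM scaling, filterByExpr with a minimum count of 10 and a minimum total of 15, robust quasi-likelihood test, Benjamini-Hochberg adjustment over all genes tested), on 9 mRNA libraries (12664 genes), 9 RNC libraries (11660 genes) or all 18 (12872 genes, for comparisons of RNC with mRNA). CPM came from the fit of the same kind. The log2 ratio per liver used CPM + 0.25 from the 18-library fit, and the mean log2 CPM of gene groups a prior count of 2. The procedure was run on simulated counts with changes planted in the HFD group. These counts did not imitate the missing genes of the HFD+LYC RNC libraries, so they do not show how the procedure behaves there. DESeq2 1.42.0, other size factors, no filter, a mean CPM of at least 10, replicate blocks, only the 6 libraries compared and leaving out each library were tried, and unscaled library totals were added after seeing the data. Values in every library are given for all 32 genes; the genes named where none was called are those of smallest p in each direction, and of each further list the gene of smallest p. The genes and lists were chosen with earlier results of these data known. Samples of mRNA and RNC were paired by liver from the sample codes they share, which no label explains. Deviations from the group mean correlated between the kinds with r from -0.0361 to 0.510 over 9 pairs, 3 of them above 0.1. Differently numbered pairs of a diet had r from -0.516 to 0.375, with 3 of 18 above 0.1. The HFD+LYC pairs were at 0.0576, 0.0593 and -0.00607, so the pairing of those livers rests on the codes alone.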

Additional observations from a re-analysis of the deposited data

Results flagged for a closer look

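Of the diet effects that differed between mRNA and RNC by the test of the difference itself, 8 passed at an adjusted p under 0.05 in edgeR's quasi-likelihood test. In each comparison 32 genes were tested. Over both directions 16.4% of all genes passed against HFD and 14.8% against control, so the 32 genes passed no more often than other genes. Against HFD the RNC effect of HFD+LYC exceeded the mRNA effect by 3.42 on the log2 scale for Calr, 2.15 for P4hb and 2.56 for Hyou1. For the genes whose RNC effect was the lower, the fitted difference was -6.35 for Asns and -6.66 for Sesn2. Against control the difference was 3.14 for Calr, and a fitted -6.31 for Asns and -6.85 for Sesn2. The fitted values of Asns and Sesn2 are no bounds, because both had 0 reads in all 3 HFD+LYC RNC libraries. The sources used here do not say whether low counts were removed from those libraries, and only if each 0 was counted do the following bounds hold. With a floor of 3 reads over the group, Asns RNC was at least 3.34-fold lower than HFD and 7.35-fold lower than control in the 18-library fit. Sesn2 RNC was at least 4.50-fold and 3.59-fold lower. The same HFD+LYC livers enter both comparisons.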

How the results depend on the processing

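The HFD+LYC RNC libraries list fewer genes, and genes of a few reads, Asns and Sesn2 among them, cannot be compared there with confidence. Counts of the genes called moved by more than 1.5 times as follows. With HFD+LYC against HFD in mRNA the count was 5 with DESeq2, 3 with no filter and 0 with unscaled totals. Against control in mRNA it was 5 with DESeq2, and 1 with a mean CPM of at least 10, with unscaled totals (1) and with only the 6 libraries compared (1). In RNC it was 3 against control with a mean CPM of at least 10, and with only the 6 libraries 2 against control and 4 against HFD. For the ratio against control DESeq2 called 6, and against HFD 3 were called with a mean CPM of at least 10 and 3 with unscaled totals. For RNC against mRNA DESeq2 called 4 in control and 1 in HFD, and unscaled totals gave 2 and 1. With unscaled totals the log2 ratio of RNC to mRNA in HFD+LYC reversed for Dnajb11 (-0.43), Dnajc3 (-0.0401), Hsp90b1 (-0.0390) and Sec61a1 (-0.0717). The cause of these shifts was not tested. Shares of all genes called are given for the main fits only, not for the alternatives, the left-out libraries or the blocks. Counts under these alternatives, here and in the sections above, therefore do not show whether the genes described here gained or lost calls more often than other genes.

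Leaving out each library gave 0 to 1 calls against HFD and 0 to 3 against control in mRNA, 4 to 11 and 2 to 12 in RNC, 2 to 6 and 2 to 5 for the ratio, 0 to 1 for RNC against mRNA in control and 11 to 19 in HFD+LYC, and 0 in every HFD against control comparison and for RNC against mRNA in HFD.

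The replicate numbers across diets were not taken to pair the samples, since not every same-numbered pair correlated above 0.1: 7 of 9 same-numbered pairs in mRNA (and 4 of 18 differently numbered ones) and 1 of 9 in RNC (and 2 of 18) did so, and 4 of 9 mRNA and 3 of 9 RNC libraries correlated best with their own number. With that number as a block 7 of the genes described here were called against HFD and 6 against control in mRNA. Against HFD these were Herpud1 and, beyond the unblocked fit, Ddit3, Ppp1r15a, Ern1, Canx, Sec61b and Calr (adjusted p 0.0104 to 0.0470), and against control Calr, Sdf2l1, Ppp1r15a and Sec61b were added (0.0198 to 0.0391). In RNC Ddit3 was added against HFD (0.0446). With the liver as a block the ratio against HFD had 3 calls, and RNC against mRNA in HFD+LYC had 20. Without the share of all genes called with either block, a gain particular to the genes described here cannot be told from a general one.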
